A study of Mus musculus with 46 samples.

Results

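Endothelial cells sorted with CD31 from obstructed kidneys were compared with endothelial cells sorted from sham-operated kidneys, gene by gene, to describe how the kidney endothelium differs after unilateral ureteric obstruction (UUO). UUO ties off one ureter, so that the kidney above it dilates and scars. The members were chosen by their labels alone, 4 sham samples (numbered 1 to 4) and 3 UUO samples (numbered 1, 2 and 4), which makes 7 of the 46 samples of the series. All mice were wild type, of the C57BL/6 strain, male and 8 to 12 weeks old by the study's methods, and all 4 populations of the series (PT, the proximal tubular cells, macrophages, endothelial cells and stromal cells) were isolated by fluorescence-activated sorting after sham surgery, UUO or reversal of UUO (rUUO). The labels do not give the day of UUO. The methods name day 2 and day 7, so the time behind these 3 samples is not known here. The values are FPKM, fragment numbers scaled for transcript length and for the size of the library, which the authors deposited for amplified cDNA of each sort. A gate on CD31 also takes platelets and some leukocytes that carry CD31, and nothing in the labels says whether these were gated out.

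The kidney holds several kinds of endothelium. Glomerular capillaries filter the blood, peritubular capillaries and vasa recta take up and exchange what the tubules return, and arteries, veins and lymphatics each have their own set of genes. Sprouting capillaries are led by tip cells, which answer VEGF and make the peptide apelin. Inflamed venules bring P-selectin and VCAM-1 to their surface to catch leukocytes.

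The sorts carried endothelial RNA in every sample. Pecam1, which encodes CD31 itself, had 409, 453, 322 and 324 FPKM in the sham samples and 509, 530.4 and 439 FPKM in the UUO samples. Cdh5, which encodes VE-cadherin of endothelial junctions, had 328, 341, 337 and 219 FPKM in the sham samples and 443, 442 and 326 FPKM in the UUO samples. Kdr, the main VEGF receptor, had 329, 411, 339.6 and 232 FPKM in the sham samples and 242, 251 and 184 FPKM in the UUO samples. The groups overlapped for these 3 genes and none passed the test (adjusted p = 0.289, 0.355 and 0.266), and in PT cells and macrophages their group means stayed between 1.16 and 6.86 FPKM. Stromal cells had means of 7.20 FPKM in sham and 2.91 FPKM in UUO for Pecam1, 3.76 and 5.765 FPKM for Cdh5 and 5.56 and 2.54 FPKM for Kdr. Of the 20 pan-endothelial markers 2 passed, both higher, and the summed level of the 20 was 4609 to 5897 FPKM in sham and 4806 to 5769 FPKM in UUO. In sham PT cells, macrophages and stromal cells the 20 summed to 26.2, 73.0 and 550 FPKM, so the stromal sorts held some endothelial RNA. The 2 that passed were Cd34, a sialomucin of capillaries (log2 change 0.80, SE 0.17, adjusted p = 0.0234), and Robo4, a guidance receptor (log2 change 0.72, SE 0.18, adjusted p = 0.0499). Cd34 lost its call when sham 1 and 3 and UUO 1, 2 and 4 were left out singly (adjusted p = 0.0506 to 0.0802), and Robo4 when sham 1, 3 and 4 and UUO 1, 2 and 4 were (adjusted p = 0.0851 to 0.131).

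Between 12134 and 13363 genes reached 1 FPKM in the sham samples and between 12413 and 12767 in the UUO samples. The table holds no counts, so absolute depth is unknown. Relative depth, read from the steps between low values of short single-exon genes, was 0.79 to 1.12 in sham and 0.98 to 1.01 in UUO, with 1 as the median of the 11 endothelial samples. Genes of the mitochondrial genome took 37.7 ± 5.29% of all FPKM in sham (SD, n = 4) and 33.0 ± 4.75% in UUO (SD, n = 3, exact two-sided permutation p = 0.286). UUO 4 stood apart, with Pearson's r across genes of 0.825 to 0.865 with the other 6 samples, where pairs without it reached 0.862 to 0.936. Sham 3 carried the most tubular RNA. Counts given below were therefore also computed without both.

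Genes were tested if they averaged 1 FPKM or more across the endothelial sorts. Of these 13393, 265 (1.98%) passed the threshold of an adjusted p-value of 0.05 in limma on log2(FPKM + 1). Higher in UUO were 171 genes (1.28%) and lower were 94 (0.702%). In 171 of 171 genes called higher and 93 of 94 called lower the sham and UUO samples did not overlap, while over all genes tested the UUO values all exceeded the sham values in 6.17% and all fell short of them in 4.81%. These 1.28% and 0.702% are the background for each count of list members given below. The median log2 change of all genes was 0.03. The set that passed rested on few samples. Of the 265, 102 kept their call whichever single sample was left out, 76 of the 171 higher and 26 of the 94 lower. Without sham 3 and UUO 4 together, 167 genes passed and 123 of these were among the 265. Rescaled without the mitochondrial genes, the split moved from 64.5% higher to 48.4% higher (107 higher and 114 lower), and the median of all genes from 0.03 to -0.08. Among genes named below, Robo4, Cd34, Nrp2, Plvap, Cav1, Ednrb, Fabp4, Angptl4, Mmp14, Plod1, Serpinh1, Fos, Ier3, Osmr, Gadd45a, Anxa1 and Havcr1 kept their direction but not their call under that scaling (adjusted p = 0.0524 to 0.151). Fewer cells of a kind and less RNA per cell cannot be told apart in these bulk sorts.

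**Figure D1:**
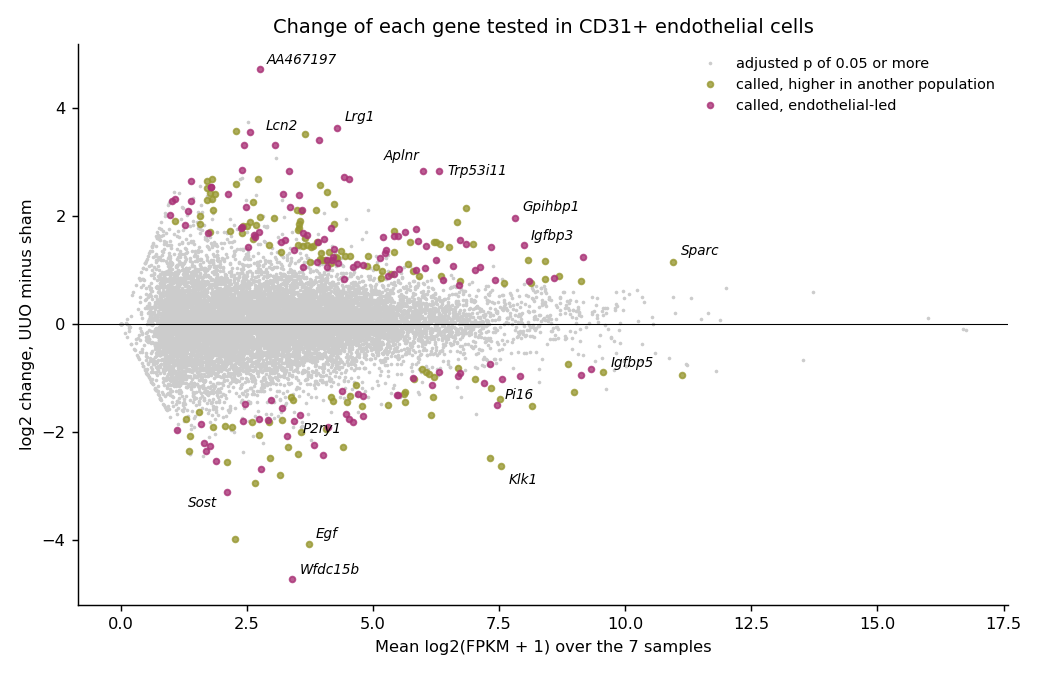
The log2 change in UUO against sham (y axis) is plotted against the mean log2(FPKM + 1) of the 7 samples (x axis) for 13393 genes. Grey points did not pass, purple points passed and were endothelial-led, olive points passed and were higher in another sorted population. The 171 points above and 94 below the line at 0 are those called.

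To separate genes of endothelium from RNA that other cells could bring, a gene was called endothelial-led when its mean in the endothelial group where it was higher was at least that of PT cells, macrophages and stromal cells after the same surgery. This held for 84 of the 171 genes called higher and 42 of the 94 called lower. Cells that were not sorted, such as those of the thick ascending limb or podocytes, are not covered by it.

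Apelin and its receptor both rose. Apln (chrX:48025146-48034853, - strand, GRCm38), the ligand that sprouting tip cells secrete, had 8.73, 12.4, 8.36 and 8.37 FPKM in the sham samples and 94.4, 70.8 and 41.7 FPKM in the UUO samples. All 3 UUO samples lay above all 4 sham samples, with sham 2 a little above the other shams. The mean was 7.28 times that of sham (log2 change 2.68, SE 0.27, adjusted p = 8.36e-05, limma). Aplnr (chr2:85136225-85139923, + strand), the G protein-coupled apelin receptor, had 23.9, 33.5, 26.1 and 23.6 FPKM in the sham samples and 214, 145 and 239 FPKM in the UUO samples. The sham samples lay close together and the lowest UUO sample was over 4 times the highest of them in the plot of values by sample (log2 change 2.83, SE 0.22, adjusted p = 7.72e-06). Both changes held without any single sample and without sham 3 and UUO 4 together (2.95 and 2.68 on the log2 scale).

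**Figure D2:**
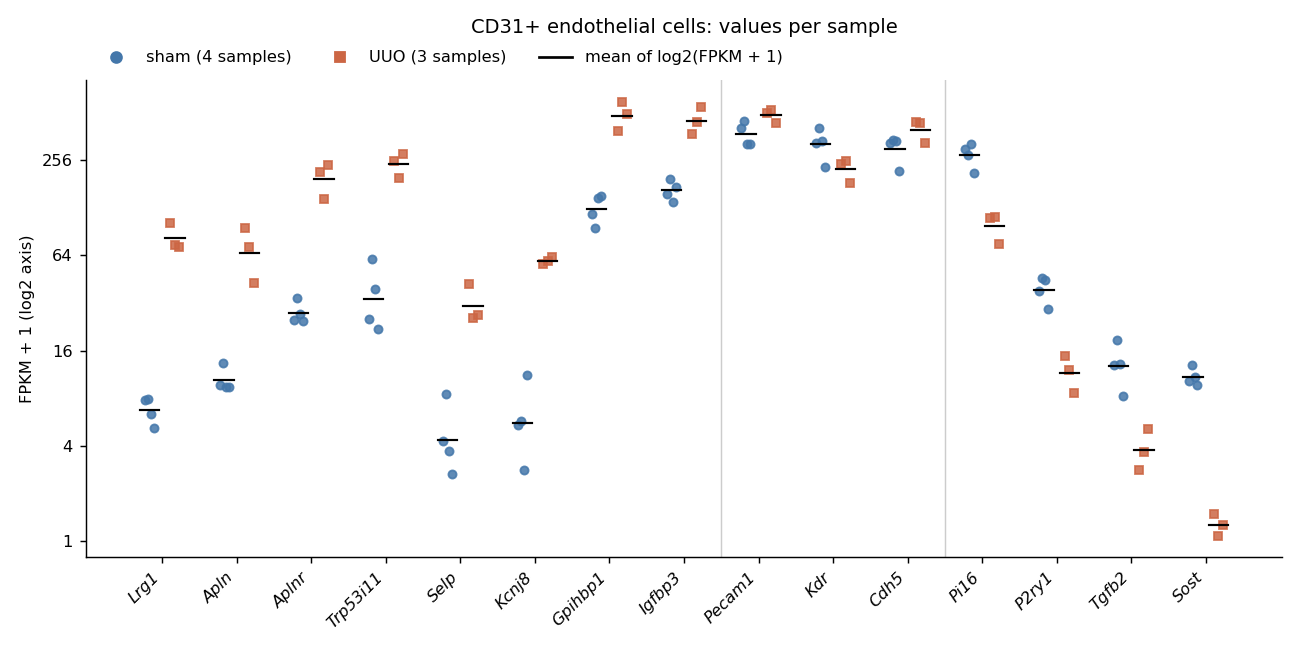
Each point is FPKM + 1 of 1 sample on a log2 axis, blue circles for the 4 sham and orange squares for the 3 UUO samples, and each line is the mean of log2(FPKM + 1). The 8 genes on the left did not overlap with UUO above sham, the 3 markers in the middle overlapped, and the 4 on the right did not overlap with UUO below sham.

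With Apln among them, 7 of 17 tested tip cell and angiogenic sprout genes were higher in UUO, against 1.28% of all genes, and none was lower. The median log2 change of the list was 0.80, and 16 of 17 lay above the median of all genes. Of the 7, 5 were endothelial-led. Trp53i11 (chr2:93187548-93201759, + strand), a p53-inducible gene found in tip cells, had 24.5, 59.7, 38.3 and 20.9 FPKM in the sham samples and 253, 197 and 281 FPKM in the UUO samples, a 6.79-fold difference in means with no overlap (log2 change 2.83, SE 0.33, adjusted p = 0.000234). Cxcr4, the receptor for the chemokine CXCL12, had 25.1 ± 5.59 FPKM in sham and 63.2 ± 11.8 FPKM in UUO (log2 change 1.31, SE 0.22, adjusted p = 0.00465). Mcam, an adhesion molecule of vessels and pericytes, had 47.9 ± 9.64 FPKM in sham and 98.04 ± 10.1 FPKM in UUO (log2 change 1.04, SE 0.21, adjusted p = 0.0143), and its call was lost without UUO 1 (adjusted p = 0.0781). The other 3 were Cd34 and the collagen IV chains Col4a1 and Col4a2. When both sham 3 and UUO 4 were left out, 6 of the 17 passed. Well-known members of the list that did not pass were Esm1, a secreted proteoglycan of tip cells (237 FPKM in sham and 374 FPKM in UUO, adjusted p = 0.173), Angpt2, a Tie2 ligand (12.8 and 27.0 FPKM, adjusted p = 0.102), and Dll4, the Notch ligand of tip cells (log2 change 0.62, SE 0.25, adjusted p = 0.273).

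Among 17 tested genes of VEGF, angiopoietin and apelin signalling 4 were higher and 1 lower (median 0.43). Nrp2, a co-receptor of VEGF-C and semaphorins, and Robo4 joined apelin and its receptor. Nrp2 had 32.2 ± 8.99 FPKM in sham and 60.6 ± 4.71 FPKM in UUO (log2 change 0.92, SE 0.22, adjusted p = 0.0377), but the call was lost when sham 1, 3 and 4 and UUO 1, 2 and 4 were left out singly (adjusted p = 0.0689 to 0.131). Vegfa, the growth factor that binds Kdr, fell, with 48.6, 33.5, 61.5 and 27.6 FPKM in the sham samples and 21.7, 11.9 and 4.81 FPKM in the UUO samples (log2 change -1.81, SE 0.44, adjusted p = 0.0471). UUO 4 was the lowest sample, and the call was lost when sham 1, 2, 3 and 4 and UUO 2 and 4 were left out singly (adjusted p = 0.0541 to 0.165). Its mean was 21.6 FPKM in sham and 25.8 FPKM in UUO PT cells. The receptors Flt1, Tek and Tie1 did not pass (log2 changes 0.11, -0.32 and -0.08). Neither did placental growth factor, Pgf, at 0.28 FPKM in sham and 5.71 FPKM in UUO (adjusted p = 0.0511).

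The largest rise of the 171 was in AA467197, also called Nmes1, a small protein gene that hosts miR-147. It had 2.73, 0.43, 0.22 and 0.2 FPKM in the sham samples and 62.6, 53.4 and 23.1 FPKM in the UUO samples, so that only sham 1 was above 1 FPKM in that group (log2 change 4.71, SE 0.45, adjusted p = 7.25e-05). Its accession-like name kept it out of the rule for named genes, and it was added after its values were seen. Lrg1 (chr17:56119680-56121946, - strand) had the next largest rise. It encodes a secreted leucine-rich glycoprotein that modifies TGF-beta signalling in endothelium. Its values were 6.77, 6.84, 5.37 and 4.15 FPKM in the sham samples and 102, 73.4 and 71.4 FPKM in the UUO samples, with no overlap (log2 change 3.62, SE 0.22, adjusted p = 3.37e-07). The mean was 14.2 times that of sham.

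Kcnj8, the pore subunit Kir6.1 of the vascular ATP-sensitive potassium channel, had 4.37, 4.72, 1.81 and 10.3 FPKM in the sham samples and 55.04, 58.4 and 61.3 FPKM in the UUO samples (log2 change 3.41, SE 0.37, adjusted p = 0.000162). Abcc9, the sulfonylurea receptor that completes this channel, had 0.76, 1.28, 1.62 and 1.53 FPKM in the sham samples and 10.6, 10.7 and 17.6 FPKM in the UUO samples (log2 change 2.59, SE 0.32, adjusted p = 0.000363). Neither gene overlapped between groups. Both are also genes of pericytes, and in stromal cells Abcc9 was at 13.4 ± 1.81 FPKM in sham and 22.8 ± 4.58 FPKM in UUO, above its endothelial levels, whereas the summed stromal and mural markers of the endothelial sorts were 144 to 172 FPKM in sham and 145 to 164 FPKM in UUO. Their part in the rise was not tested. Kcnj2, the inward rectifier Kir2.1, had 1.67, 1.45, 0.25 and 1.63 FPKM in the sham samples and 14.1, 13.02 and 5.97 FPKM in the UUO samples (log2 change 2.40, SE 0.38, adjusted p = 0.00259), and sham 3 was the low sample of its group.

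The remaining large endothelial-led rises ranged in log2 change from 2.38 to 3.54. Prnd, which encodes the prion-like protein doppel, had 0.56, 2.43, 0.97 and 0.74 FPKM in the sham samples and 37.4, 26.4 and 12.4 FPKM in the UUO samples (log2 change 3.54, SE 0.39, adjusted p = 0.000162). It was at or below 0.362 ± 0.536 FPKM in PT cells, macrophages and stromal cells. Nrcam, a neuronal cell adhesion molecule, had 0.95, 2.14, 0.4 and 1.03 FPKM in the sham samples and 12.5, 29.7 and 19.1 FPKM in the UUO samples (log2 change 3.31, SE 0.35, adjusted p = 0.000146). Inhbb, the beta-B subunit of activin and inhibin, had 1.32, 3.36, 1.61 and 2.57 FPKM in the sham samples and 28.5, 36.5 and 25.4 FPKM in the UUO samples (log2 change 3.30, SE 0.36, adjusted p = 0.000162). These 3 genes were all under 4 FPKM in every sham sample and above 12 FPKM in every UUO sample. Meox2, a homeobox factor of capillary endothelium, had 0.08, 0.44, 0.16 and 0.11 FPKM in the sham samples and 3.60, 6.12 and 11.8 FPKM in the UUO samples (log2 change 2.65, SE 0.47, adjusted p = 0.00634), so its sham level was near 0. Without sham 3 and UUO 4 together it did not pass (adjusted p = 0.061). Aqp7, a glycerol channel also found in proximal straight tubules, had 0.22, 0.52, 5.77 and 1.10 FPKM in the sham samples and 14.4, 24.9 and 9.81 FPKM in the UUO samples (log2 change 2.84, SE 0.62, adjusted p = 0.027). It was at 9.52 ± 1.87 FPKM in sham PT cells, and its call was lost when sham 1, 2 and 4 and UUO 1 and 2 were left out singly (adjusted p = 0.065 to 0.102). Pdlim1, an actin-linked PDZ and LIM protein, had 8.79 ± 2.56 FPKM in sham and 62.9 ± 13.2 FPKM in UUO. Ccdc3, a secreted coiled-coil protein, had 3.73 ± 1.26 FPKM in sham and 23.9 ± 7.33 FPKM in UUO. Vwa1, a matrix protein of basement membranes, had 5.18 ± 3.08 FPKM in sham and 29.03 ± 4.93 FPKM in UUO. All 3 passed without overlap and in every fit that left out a sample (log2 changes 2.73, 2.40 and 2.38).

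Leukocyte adhesion molecules and venous markers rose in part. Selp (chr1:164115264-164150026, + strand), which encodes P-selectin, the molecule on which leukocytes roll, had 3.26, 7.55, 2.69 and 1.64 FPKM in the sham samples and 40.97, 24.7 and 25.9 FPKM in the UUO samples. UUO lay above sham without overlap and its mean was 8.06 times higher (log2 change 2.82, SE 0.37, adjusted p = 0.000592). Platelets also hold Selp RNA, but the platelet markers summed to 8.55 to 12.6 FPKM in sham and 6.65 to 20.7 FPKM in UUO over 6 genes, and their part in the rise was not tested. The platelet genes highest in the sorts, Pf4 and Ppbp, did not pass (2.65 ± 1.19 FPKM in sham and 6.82 ± 7.31 FPKM in UUO for Pf4, 3.93 ± 3.22 FPKM in sham and 2.50 ± 0.648 FPKM in UUO for Ppbp). Vcam1, the integrin ligand of inflamed venules, had 10.5, 15.3, 10.3 and 14.9 FPKM in the sham samples and 31.6, 23.4 and 38.3 FPKM in the UUO samples (log2 change 1.22, SE 0.24, adjusted p = 0.0129), and lost its call without UUO 1 or 4 (adjusted p = 0.0529 to 0.0607). Jam2, a junctional adhesion molecule of venules, had 45.4, 59.6, 33.9 and 34.8 FPKM in the sham samples and 116, 103 and 133 FPKM in the UUO samples (log2 change 1.44, SE 0.22, adjusted p = 0.00213). Together with Cd34, 4 of 13 tested adhesion molecules were higher and none lower (median 0.30), and 2 of 8 venous markers (median 1.11). Without sham 3 and UUO 4 together these counts were 2 and 1. Among the lymphatic markers none of 6 passed (median 0.73). Ccl21a, a lymphatic chemokine with a near-identical copy, was at 36.1, 26.98, 20.6 and 32.7 FPKM in sham and 16.5, 67.4 and 164 FPKM in UUO, a spread that covered the sham values. The lymphatic growth factor receptor Flt4 had 46.3 ± 10.01 FPKM in sham and 68.7 ± 6.84 FPKM in UUO (adjusted p = 0.184), and the lymphatic regulators Prox1 and Lyve1 did not pass (3.18 ± 2.10 FPKM in sham and 3.21 ± 2.15 FPKM in UUO for Prox1, 4.30 ± 2.60 FPKM in sham and 12.5 ± 10.5 FPKM in UUO for Lyve1).

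Markers of the glomerular and of the peritubular bed were called mostly in opposite directions. Of 10 glomerular capillary markers none was higher and 3 were lower in UUO, against 0.702% of all genes, with a median of -1.06, and 10 of 10 lay below the median of all genes. Pi16, a secreted peptidase inhibitor, had 301, 274, 324 and 210.2 FPKM in the sham samples and 109, 111 and 74.5 FPKM in the UUO samples, which did not overlap (log2 change -1.49, SE 0.20, adjusted p = 0.000869). Tspan7, a tetraspanin, had 162, 138, 124 and 122 FPKM in the sham samples and 75.6, 75.8 and 57.8 FPKM in the UUO samples (log2 change -0.96, SE 0.19, adjusted p = 0.0145), and lost its call without sham 1 or UUO 4 (adjusted p = 0.0538 to 0.0573). Lpl, lipoprotein lipase, had 45.7, 66.2, 50.5 and 20.5 FPKM in the sham samples and 12.8, 20.1 and 10.7 FPKM in the UUO samples (log2 change -1.52, SE 0.33, adjusted p = 0.0277), and its call was lost when sham 1, 2 and 3 and UUO 1 and 4 were left out singly (adjusted p = 0.0747 to 0.099). It was higher in sham macrophages, at 116 ± 21.8 FPKM. The other 7 glomerular markers did not pass, among them Ehd3, an endocytic protein (455 FPKM in sham and 214 FPKM in UUO, adjusted p = 0.0773). With both sham 3 and UUO 4 left out, 1 of the 10 was lower.

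The peritubular capillary and vasa recta list went the other way in 4 of 10 genes, with 1 lower (median 0.54). Aplnr was one of the 4. Igfbp3, a binding protein for insulin-like growth factors, had 157, 193, 137 and 173 FPKM in the sham samples and 373, 446 and 552 FPKM in the UUO samples (log2 change 1.46, SE 0.19, adjusted p = 0.000592). Igfbp7, a binding protein deposited in vessel matrix, had 223, 237, 292 and 217 FPKM in the sham samples and 577, 627 and 436 FPKM in the UUO samples (log2 change 1.17, SE 0.19, adjusted p = 0.00397). Each of these 3 kept its call without any single sample. Plvap, which forms the diaphragms of fenestrated capillaries, had 129, 124, 57.01 and 113 FPKM in the sham samples and 206, 172 and 266 FPKM in the UUO samples (log2 change 1.06, SE 0.26, adjusted p = 0.0484), with sham 3 the low sample. Its call was lost whichever of the 7 samples was left out (adjusted p = 0.0544 to 0.156). Igfbp5, the most abundant of the list, fell, with 1127, 1217, 1115 and 618 FPKM in the sham samples and 568, 531 and 499.6 FPKM in the UUO samples (log2 change -0.89, SE 0.21, adjusted p = 0.0454). Sham 4 lay near the UUO samples, and the call was lost when sham 1, 2 and 3 and UUO 1, 2 and 4 were left out singly (adjusted p = 0.102 to 0.125). Igfbp5 was not endothelial-led, and of the 4 rises 3 were. The whole list summed to 3889 FPKM in sham stromal cells, beside 1444 to 2190 FPKM in the sham endothelial sorts. The part of stromal RNA in these changes was not tested. Arterial markers gave no call in either direction (0 of 12, median -0.12). The highest of them, Gja5 and Efnb2, which encode connexin 40 and ephrin-B2, had 115 ± 31.5 FPKM in sham and 115 ± 18.7 FPKM in UUO and 151 ± 39.2 FPKM in sham and 111 ± 12.7 FPKM in UUO. The spread of the samples covered these differences.

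Genes of capillary fatty acid uptake were higher in 4 and lower in 1 of 18 tested (median 0.42). Gpihbp1 (chr15:75596628-75599481, + strand), the anchor that carries lipoprotein lipase to the capillary lumen, had 117, 94.7, 147 and 150.3 FPKM in the sham samples and 391, 599 and 499 FPKM in the UUO samples. UUO values did not overlap with sham and their mean was 3.90 times higher (log2 change 1.96, SE 0.19, adjusted p = 8.36e-05). The lipase itself was the member that fell, as given above. Fabp4, a fatty acid binding protein of capillaries, had 380.01, 443, 237 and 604 FPKM in the sham samples and 862, 1265 and 744 FPKM in the UUO samples (log2 change 1.24, SE 0.30, adjusted p = 0.0484), and its call was lost when sham 1, 2 and 3 and UUO 1, 2 and 4 were left out singly (adjusted p = 0.0529 to 0.172). Angptl4, which inhibits the lipase, had 0.53, 1.87, 3.34 and 1.71 FPKM in the sham samples and 9.71, 8.42 and 5.94 FPKM in the UUO samples (log2 change 1.73, SE 0.40, adjusted p = 0.0364), with the call lost when sham 1, 2 and 4 and UUO 1 and 2 were left out singly (adjusted p = 0.0614 to 0.13). Meox2 was the fourth, while its partner Tcf15 was at 3.37 FPKM in sham and 10.03 FPKM in UUO and did not pass (adjusted p = 0.132). Abca1, which exports cholesterol from cells, had 7.48, 10.8, 6.96 and 2.39 FPKM in the sham samples and 40.4, 46.97 and 38.2 FPKM in the UUO samples (log2 change 2.57, SE 0.39, adjusted p = 0.0021). UUO macrophages were higher, at 57.9 ± 8.06 FPKM.

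The vascular basement membrane rose in 3 of 14 genes and fell in none, and 13 of 14 lay above the median of all genes (median 0.41). Sparc, a collagen-binding matricellular protein and the most abundant of the list, had 1627, 1458, 1286 and 1300.03 FPKM in the sham samples and 3737, 2832 and 2897 FPKM in the UUO samples (log2 change 1.15, SE 0.15, adjusted p = 0.00071). Col4a1 and Col4a2, the chains of the main collagen IV network, had 60.2 ± 15.1 FPKM in sham and 161 ± 20.9 FPKM in UUO and 51.7 ± 8.33 FPKM in sham and 146 ± 27.3 FPKM in UUO (log2 changes 1.43 and 1.47, adjusted p = 0.00168 and 0.000914). All 3 kept their calls without any single sample, and all 3 were higher in UUO stromal cells than in UUO endothelial cells. Of 15 matrix enzymes 4 were higher, none of them endothelial-led. Adamts4, an aggrecan-cleaving protease, went from 0.29 to 1.06 FPKM in sham to 5.89 to 10.3 FPKM in UUO (log2 change 2.52, SE 0.39, adjusted p = 0.00254). Mmp14, a membrane matrix protease (1.34), Plod1, a lysyl hydroxylase (0.97), and Serpinh1, a collagen chaperone (0.90), were less secure. Mmp14 lost its call when sham 1 and 4 and UUO 1 and 4 were left out singly, Plod1 when sham 1, 3 and 4 and UUO 1 and 4 were and Serpinh1 when sham 2, 3 and 4 and UUO 1, 2 and 4 were (adjusted p up to 0.158), and 1 of the 15 enzymes passed without sham 3 and UUO 4 together.

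Immediate early genes answer stimuli within minutes and also rise during cell isolation. On the list of these and heat shock genes, 8 of 21 were higher, against 1.28% of all genes, and none was lower, against 0.702%. The median log2 change of the list was 0.93, and 20 of 21 lay above the median of all genes. Of the 8, only 1 was endothelial-led, and the rest were higher in another sorted population after UUO. The 8 included 3 subunits of the transcription factor AP-1. Fos had 10.1, 16.2, 16.01 and 14.6 FPKM in the sham samples and 27.5, 27.7 and 55.3 FPKM in the UUO samples (log2 change 1.26, SE 0.27, adjusted p = 0.0225). Fosb had 5.58, 6.75, 10.3 and 7.81 FPKM in the sham samples and 14.4, 26.5 and 28.6 FPKM in the UUO samples (log2 change 1.46, SE 0.28, adjusted p = 0.0109). Fosl2 had 38.3, 27.6, 29.4 and 16.3 FPKM in the sham samples and 82.9, 109 and 66.5 FPKM in the UUO samples (log2 change 1.62, SE 0.26, adjusted p = 0.00334), the largest of the 3. Fos lost its call without sham 1 or UUO 4 (adjusted p = 0.0727 to 0.079) and Fosb without UUO 2 (adjusted p = 0.0536). Atf3, a stress-induced bZIP factor, had 2.33 ± 0.501 FPKM in sham and 10.7 ± 1.24 FPKM in UUO, Myc, a growth regulator, 2.38 ± 1.59 FPKM in sham and 14.1 ± 2.15 FPKM in UUO, Egr1, a zinc-finger factor, 48.3 ± 9.07 FPKM in sham and 138 ± 17.9 FPKM in UUO, and Nr4a1, an orphan nuclear receptor, 7.03 ± 2.14 FPKM in sham and 22.6 ± 3.03 FPKM in UUO (adjusted p = 0.00339, 0.00254, 0.00149 and 0.00359). These 4 and Fosl2 kept their calls without any single sample. Ier3, a stress-induced survival gene, had 21.01 ± 5.64 FPKM in sham and 44.8 ± 8.92 FPKM in UUO (adjusted p = 0.0379), with the call lost when sham 1 and 3 and UUO 1 and 2 were left out singly (adjusted p = 0.102 to 0.133). Of the 21 genes, 6 passed without sham 3 and UUO 4 together.

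Because AP-1 subunits rose, promoters were searched for the letters of its site, TGANTCA, on both strands. The windows came from RefSeq on GRCm38.p6 and run from 250 bases before to 50 bases after a start. Among genes tested that have 1 window, 332 of 7474 (4.44%) held the letters, against 11 of 88 (12.5%) called higher and 1 of 52 (1.92%) called lower. Of all 32851 RefSeq windows 7.81% held them. The other motifs, of 12 in all, are given as the share of tested genes, then of those called higher, then of those called lower. STAT letters, TTCNNNGAA, were in 6.97%, 7.95% and 5.77%, and the core of hypoxia response elements, ACGTG, in 25.8%, 22.7% and 19.2%. The cyclic AMP element TGACGTCA was in 3.30%, 3.41% and 0%. The ETS form CCGGAAG was in 19.7%, 7.95% and 5.77% and the form CAGGAAG in 12.6%, 13.6% and 11.5%. The forkhead and ETS element AACAGGAA was in 2.22%, 2.27% and 1.92%. The KLF box CCACCC was in 36.3%, 43.2% and 53.8%, and the RBPJ site GTGGGAA in 5.93%, 3.41% and 5.77%. By name only, a strict NF-kB site was in 0.187%, 1.14% and 0%, a looser one in 1.69%, 2.27% and 1.92%, and the MEF2 site in 0.0669%, 0% and 0%. Shares thus differed between the groups for AP-1 and also for CCGGAAG and CCACCC, on few genes. TGANTCA is its own reverse complement, and no match to it can also be one to TGACGTCA. The count was made after the rises were known, a match is a run of letters and not a measured site, and these shares carry no test.

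The 4 windows below belong to the endothelial-led rises with a match that had the largest changes and at least 5 FPKM in every UUO sample, shown so that the position of the letters can be seen. Capitals mark TGANTCA. The match begins 73 bases before the start in AA467197 (chr2:122637637-122637936, + strand), 139 before in Selp (chr1:164115014-164115313, + strand), 58 before in Galnt15 (chr14:32028853-32029152, + strand) and 19 before in Gja1 (chr10:56377050-56377349, + strand).
AA467197: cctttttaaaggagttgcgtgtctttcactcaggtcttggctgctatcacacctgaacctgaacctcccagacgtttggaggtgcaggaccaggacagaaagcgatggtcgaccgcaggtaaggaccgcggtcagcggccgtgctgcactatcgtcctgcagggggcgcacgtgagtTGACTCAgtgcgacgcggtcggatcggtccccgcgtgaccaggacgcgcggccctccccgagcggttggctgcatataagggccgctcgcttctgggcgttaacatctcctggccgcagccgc
Selp: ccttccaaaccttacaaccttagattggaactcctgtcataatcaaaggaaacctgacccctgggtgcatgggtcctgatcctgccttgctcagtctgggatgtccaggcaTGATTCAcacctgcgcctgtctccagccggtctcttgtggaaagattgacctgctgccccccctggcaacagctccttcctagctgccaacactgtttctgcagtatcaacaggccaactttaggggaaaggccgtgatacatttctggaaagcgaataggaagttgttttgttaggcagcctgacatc
Galnt15: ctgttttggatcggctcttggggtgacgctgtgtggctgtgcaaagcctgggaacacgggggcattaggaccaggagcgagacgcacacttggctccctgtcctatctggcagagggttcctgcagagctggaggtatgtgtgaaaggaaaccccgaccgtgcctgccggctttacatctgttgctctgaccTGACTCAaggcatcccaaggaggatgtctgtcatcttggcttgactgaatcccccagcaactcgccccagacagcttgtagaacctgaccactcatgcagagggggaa
Gja1: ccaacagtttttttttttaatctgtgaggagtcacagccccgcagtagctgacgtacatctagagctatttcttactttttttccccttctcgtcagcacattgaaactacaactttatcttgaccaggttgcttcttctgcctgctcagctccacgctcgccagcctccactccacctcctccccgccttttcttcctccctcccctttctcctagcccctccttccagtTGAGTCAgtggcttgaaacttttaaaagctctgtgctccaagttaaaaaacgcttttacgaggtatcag
Galnt15, an enzyme that starts O-linked glycans, had 4.93, 7.81, 10.5 and 5.39 FPKM in the sham samples and 23.5, 22.7 and 25.2 FPKM in the UUO samples (log2 change 1.65, SE 0.28, adjusted p = 0.00461). Gja1, which encodes connexin 43 of gap junctions, had 9.55, 14.96, 11.6 and 10.1 FPKM in the sham samples and 29.5, 30.9 and 33.5 FPKM in the UUO samples (log2 change 1.38, SE 0.24, adjusted p = 0.00553). Neither overlapped, and both were named after their values were seen. The values of AA467197 and Selp stand above.

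Where TGF-beta and BMP genes passed they were lower, 3 of 20 with none higher and a median of -0.45. Tgfb2, a TGF-beta ligand, had 12.04, 17.6, 12.2 and 7.28 FPKM in the sham samples and 1.80, 2.66 and 4.13 FPKM in the UUO samples, without overlap (log2 change -1.77, SE 0.35, adjusted p = 0.0145), and lost its call without UUO 1 (adjusted p = 0.0781). Bmp6, the BMP ligand that endothelial cells secrete, had 45.1, 68.2, 53.8 and 25.97 FPKM in the sham samples and 14.8, 18.6 and 8.36 FPKM in the UUO samples (log2 change -1.71, SE 0.34, adjusted p = 0.0131), and lost its call without UUO 4 (adjusted p = 0.0555). Ltbp1, which tethers latent TGF-beta to matrix, had 37.2, 46.9, 41.6 and 36.5 FPKM in the sham samples and 17.8, 14.1 and 14.9 FPKM in the UUO samples (log2 change -1.32, SE 0.24, adjusted p = 0.00698), a call that no single sample decided. The BMP target genes Id1, Id3 and Smad6 had log2 changes of -1.30, -0.65 and -1.09 and did not pass (adjusted p = 0.132, 0.132 and 0.0695). Tgfb1, the ligand best known in fibrosis, was at 56.1 FPKM in sham and 59.9 FPKM in UUO (adjusted p = 0.894).

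Among the endothelial-led falls, Sost (chr11:101962458-101967015, - strand), which encodes the Wnt antagonist sclerostin, had 9.33, 12, 9.87 and 8.75 FPKM in the sham samples and 0.48, 0.08 and 0.26 FPKM in the UUO samples (log2 change -3.11, SE 0.35, adjusted p = 0.000162). The sham samples lay in a narrow range and the UUO samples were all under 1 FPKM. Sham means in PT cells, macrophages and stromal cells were 0.08 ± 0.0954, 0.0525 ± 0.0608 and 0.425 ± 0.28 FPKM. P2ry1, the receptor for ADP, had 37.2, 44.7, 43.6 and 28.2 FPKM in the sham samples and 13.9, 11.1 and 7.59 FPKM in the UUO samples (log2 change -1.75, SE 0.31, adjusted p = 0.00592). It did not pass without sham 3 and UUO 4 together (adjusted p = 0.0585). Egfl8, a secreted EGF-like protein, had 29.4, 40.99, 27.2 and 22.5 FPKM in the sham samples and 10.3, 9.43 and 3.45 FPKM in the UUO samples (log2 change -1.91, SE 0.34, adjusted p = 0.00662), and Fam107a, an actin-associated protein, had 12.4, 21.9, 14.5 and 10.2 FPKM in the sham samples and 2.31, 1.18 and 0.83 FPKM in the UUO samples (log2 change -2.68, SE 0.36, adjusted p = 0.000642). Calca, which encodes calcitonin and its gene-related peptide, had 41.9, 26.5, 24.3 and 38.9 FPKM in the sham samples and 3.92, 2.62 and 12.2 FPKM in the UUO samples (log2 change -2.42, SE 0.46, adjusted p = 0.0112), and lost its call without UUO 1 or 2 (adjusted p = 0.0574 to 0.0611). In UUO stromal cells Calca was at 18.8 ± 21.6 FPKM against 0.175 ± 0.245 FPKM in sham.

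Further endothelial-led falls were Clic3, an intracellular chloride channel protein (17.9 ± 5.65 FPKM in sham and 3.36 ± 0.445 FPKM in UUO), Scrn3, a secernin (18.1 ± 5.87 FPKM in sham and 4.75 ± 2.42 FPKM in UUO), and Klc2, a kinesin light chain (11.002 ± 4.94 FPKM in sham and 2.40 ± 0.546 FPKM in UUO). Clic3 kept its call without any single sample (adjusted p = 0.00334). Scrn3 lost its call without UUO 4 (adjusted p = 0.0533), and Klc2 when sham 1, 3 and 4 and UUO 1, 2 and 4 were left out singly (adjusted p = 0.0525 to 0.127). In stromal cells Clic3 was at 11.6 ± 4.91 FPKM in sham and 0.328 ± 0.427 FPKM in UUO.

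Junction and caveola genes were higher in 3 and lower in 1 of 19 (median 0.40). Jam2 and Plvap were among them. Cav1, the caveolin of endothelial caveolae, had 142, 156, 121 and 115 FPKM in the sham samples and 217, 224 and 266 FPKM in the UUO samples (log2 change 0.82, SE 0.19, adjusted p = 0.0372), and its call was lost when sham 1, 3 and 4 and UUO 1, 2 and 4 were left out singly (adjusted p = 0.0708 to 0.11). Cavin2, a coat protein of the same caveolae, fell, with 121, 99.95, 88.2 and 89.99 FPKM in the sham samples and 44.3, 57.4 and 35.9 FPKM in the UUO samples (log2 change -1.12, SE 0.21, adjusted p = 0.0109). Cavin2 had an adjusted p of 0.0538 without sham 3 and UUO 4 together. Nitric oxide, endothelin, prostanoid and flow genes gave 2 higher of 19, Cav1 and the endothelin receptor Ednrb. Ednrb had 81.3, 97.7, 45.1 and 61.5 FPKM in the sham samples and 142, 138 and 156 FPKM in the UUO samples (log2 change 1.07, SE 0.23, adjusted p = 0.0258), with the call lost when sham 3 and 4 and UUO 1, 2 and 4 were left out singly (adjusted p = 0.0571 to 0.0781).

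Mesenchymal transition genes gave 1 call each way of 14, neither endothelial-led. Vim, the filament vimentin, had 201, 189.7, 162 and 200.3 FPKM in the sham samples and 539, 441 and 329 FPKM in the UUO samples (log2 change 1.19, SE 0.20, adjusted p = 0.00402). Zeb2, a transcriptional repressor linked to that transition, fell, with 30.8, 40.8, 25.4 and 16.7 FPKM in the sham samples and 9.34, 11.1 and 8.12 FPKM in the UUO samples (log2 change -1.43, SE 0.33, adjusted p = 0.0351), and its call was lost when sham 1, 2 and 3 and UUO 1, 2 and 4 were left out singly (adjusted p = 0.0589 to 0.101). Cell cycle genes had the median 0.81 and 21 of 25 above the median of all genes, but 1 passed, which was not endothelial-led. Birc5, the mitotic protein survivin, had 0.12, 1.62, 0.1 and 1.26 FPKM in the sham samples and 7.20, 6.24 and 7.98 FPKM in the UUO samples (log2 change 2.30, SE 0.41, adjusted p = 0.00662), and did not pass without sham 3 and UUO 4 together (adjusted p = 0.0545). Arrest genes gave 1 of 15, Gadd45a, a DNA damage response gene (log2 change 1.19, SE 0.28, adjusted p = 0.039), whose call was lost when sham 1, 2, 3 and 4 and UUO 1 and 4 were left out singly (adjusted p = 0.0504 to 0.137). Gadd45a was not endothelial-led.

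Of 21 NF-kB, chemokine and cytokine genes 3 were higher and none lower. They were Lrg1, Ccl2, the monocyte chemoattractant MCP-1, and Osmr, the oncostatin M receptor. Ccl2 had 0.73, 0.66, 0.19 and 1.23 FPKM in the sham samples and 7.38, 5.77 and 11.4 FPKM in the UUO samples (log2 change 2.42, SE 0.43, adjusted p = 0.00687), with every sham sample below 2 FPKM, and without sham 3 and UUO 4 together its adjusted p was 0.0673. Osmr had 11.7, 14.7, 12.7 and 8.98 FPKM in the sham samples and 27.3, 19.1 and 38.8 FPKM in the UUO samples (log2 change 1.14, SE 0.26, adjusted p = 0.0337), and lost its call when sham 1, 3 and 4 and UUO 1 and 4 were left out singly (adjusted p = 0.0644 to 0.116). UUO macrophages had 124 ± 19.9 FPKM of Ccl2. Of the 3 genes, only Lrg1 was endothelial-led.

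No member passed among 15 Notch pathway genes, 21 interferon-stimulated genes, 15 genes of MHC presentation and 17 genes of hypoxia and glycolysis (medians -0.11, 0.38, 0.26 and 0.39). In simulated data of this design, genes changed by 1 on the log2 scale were recovered in 15% of cases and genes changed by 2 in 61%, so smaller changes could go undetected. The most abundant members had values that overlapped or nearly so. Notch1 was at 82.95 ± 28.02 FPKM in sham and 67.04 ± 20.04 FPKM in UUO. Rsad2 and Bst2, both antiviral effectors, were at 144 ± 28.2 FPKM in sham and 106 ± 19.5 FPKM in UUO and at 165 ± 13.9 FPKM in sham and 195 ± 55.4 FPKM in UUO. H2-K1 and B2m, the chains of MHC class I, were at 921 ± 93.4 FPKM in sham and 1110.05 ± 176 FPKM in UUO and at 3711 ± 577 FPKM in sham and 3915 ± 532 FPKM in UUO. Gapdh and Aldoa, glycolytic enzymes, were at 709 ± 87.3 FPKM in sham and 872 ± 102 FPKM in UUO and at 256 ± 70.1 FPKM in sham and 221 ± 17.7 FPKM in UUO. Their adjusted p-values ran from 0.352 to 0.884.

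Without sham 3 and UUO 4 together, 3 genes of the VEGF, angiopoietin and apelin list were higher and none lower, as were 3 of the peritubular and 3 of the fatty acid list. The basement membrane list then had 3 higher and 1 lower, the TGF-beta and BMP list 2 lower, the thick limb and distal list 6 lower, and the junction and NF-kB lists 1 higher each. No nitric oxide, endothelin, prostanoid or flow gene passed in that fit, and 1 pan-endothelial marker did.

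**Figure D3:**
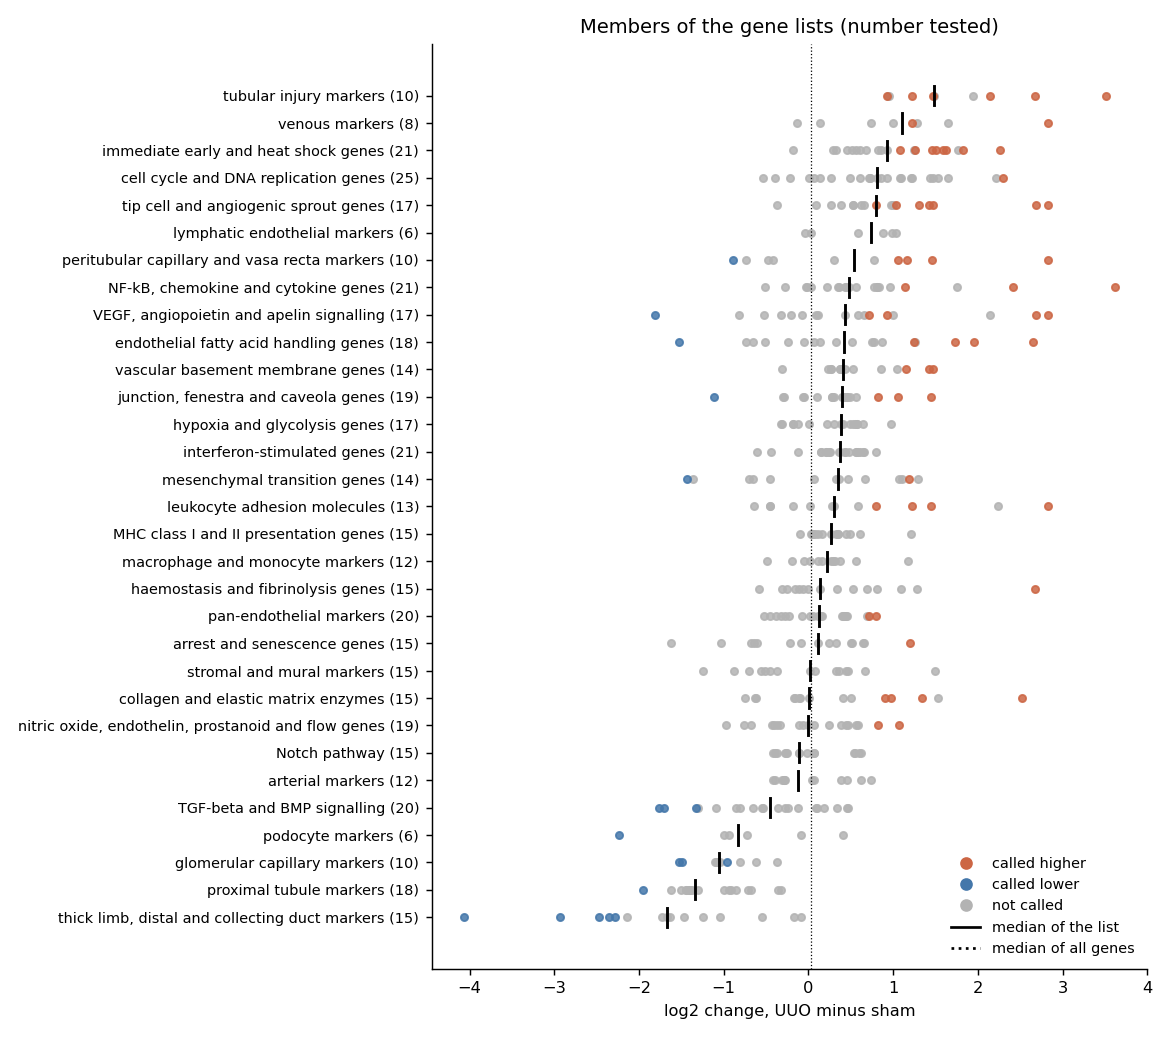
Each row is a gene list with the number of members tested, each point the log2 change of 1 member in UUO against sham, orange if called higher, blue if called lower and grey if not called. The black bar is the median of the list and the dotted line the median of all genes (0.03), with tubular injury markers at the top (1.48) and thick limb, distal and collecting duct markers at the bottom (-1.67).

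RNA of tubules was present in the endothelial sorts and in part lower after obstruction. Thick limb, distal and collecting duct markers summed to 273 to 1270.4 FPKM in sham and 96.5 to 309.97 FPKM in UUO, and 5 of 15 were lower, with none higher and a median of -1.67. Egf, a growth factor precursor of the distal nephron, had 25.1, 33.03, 119 and 35.4 FPKM in the sham samples and 2.32, 1.05 and 1.76 FPKM in the UUO samples (log2 change -4.06, SE 0.45, adjusted p = 0.000162). Sham 3 held several times the level of the other shams, and for the whole list the median ratio of sham 3 to the mean of the other shams was 3.75. Slc12a1, the sodium-potassium-chloride transporter of the thick limb, had 27.8, 34.6, 73.6 and 38.6 FPKM in the sham samples and 5.38, 4.57 and 16.9 FPKM in the UUO samples (log2 change -2.28, SE 0.43, adjusted p = 0.011), and lost its call without UUO 1 or 2 (adjusted p = 0.0565 to 0.0647). Umod, the most abundant thick limb transcript, had 99.3, 161, 558 and 242 FPKM in the sham samples and 51.1, 42.9 and 137 FPKM in the UUO samples, which overlapped (adjusted p = 0.138). Calb1 and Pvalb, calcium-binding proteins of the distal convoluted tubule, and Ppp1r1a, a phosphatase inhibitor, passed lower (log2 changes -2.93, -2.35 and -2.47). Pvalb lost its call when sham 3 and UUO 2 and 4 were left out singly and Ppp1r1a when sham 2, 3 and 4 and UUO 1 and 4 were (adjusted p up to 0.117).

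The same transcripts were also present in other sorts. Egf was at 66.7 ± 13.5 FPKM in sham and 1.19 ± 1.09 FPKM in UUO stromal cells, and at 10.5 ± 2.53 FPKM in sham and 1.04 ± 0.385 FPKM in UUO macrophages. Klk1, kallikrein of the connecting tubule, whose reads can be shared with related kallikreins, had 263, 250.02, 1209 and 338 FPKM in the sham samples and 51.4, 55.3 and 96.3 FPKM in the UUO samples in the endothelial sorts (log2 change -2.62, SE 0.44, adjusted p = 0.00397) and was at 547 ± 193 FPKM in sham and 19.3 ± 5.62 FPKM in UUO stromal cells. Wfdc15b, a WAP-domain gene with close relatives, had 24.1, 26.2, 107 and 44.4 FPKM in the sham samples and 1.74, 0.25 and 0.25 FPKM in the UUO samples (log2 change -4.72, SE 0.48, adjusted p = 9.75e-05), and was at 33.9 ± 10.5 FPKM in sham and 0.677 ± 0.802 FPKM in UUO stromal cells. By the rule it counted as endothelial-led, as did Gpx6, a glutathione peroxidase with close relatives (log2 change -2.53, SE 0.60, adjusted p = 0.041), and Tmem207, a transmembrane protein (log2 change -2.20, SE 0.50, adjusted p = 0.0351). In the sham group Wfdc15b, Gpx6, Tmem207 and Pvalb were each highest in sham 3. Gpx6 lost its call when sham 2, 3 and 4 and UUO 1, 2 and 4 were left out singly and Tmem207 when sham 3 and 4 and UUO 1 and 2 were (adjusted p up to 0.124). Sfrp2, a Wnt antagonist of fibroblasts, had 18.6, 18.6, 44.1 and 16.2 FPKM in the sham samples and 5.50, 3.52 and 1.98 FPKM in the UUO samples (log2 change -2.40, SE 0.39, adjusted p = 0.00334) beside 885 ± 197 FPKM in sham and 183 ± 139 FPKM in UUO stromal cells.

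Podocyte RNA was also present. Nphs1, which encodes nephrin, had 7.21, 5.43, 5.51 and 3.86 FPKM in the sham samples and 2.42, 3.94 and 0.97 FPKM in the UUO samples, and did not pass (adjusted p = 0.267). Summed over the podocyte list the level was 69.6 to 132 FPKM in sham and 66.9 to 87.8 FPKM in UUO. The part of podocyte RNA in the fall of glomerular markers was not tested.

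PT markers took 0.0445 ± 0.0235% of all FPKM in sham (SD, n = 4) and 0.0189 ± 0.0048% in UUO (SD, n = 3). The exact two-sided permutation test over the 35 regroupings gave p = 0.0857, where 0.0286 is the smallest it allows. Of 18 tested PT markers 18 lay below the median of all genes (median -1.34) and 1 passed, Miox, an inositol oxygenase of PT cells (21.9, 22.7, 49.2 and 29.4 FPKM in the sham samples and 8.03, 3.76 and 10.1 FPKM in the UUO samples, adjusted p = 0.00935). Lrp2, the endocytic receptor megalin, had 4.80, 3.64, 9.33 and 4.45 FPKM in the sham samples and 2.19, 1.31 and 3.16 FPKM in the UUO samples and Slc34a1, the phosphate transporter, had 32.3, 19.7, 81.4 and 32.8 FPKM in the sham samples and 12.7, 7.56 and 28.1 FPKM in the UUO samples, and neither passed (adjusted p = 0.344 and 0.24). In the sorted PT cells Slc34a1 was at 1457 ± 270.4 FPKM in sham and 335 ± 30.6 FPKM in UUO. From the PT markers, the PT RNA carried was estimated at 2.30% to 5.65% of a PT profile in sham and at 1.85% to 3.47% in UUO. Once that share of the PT profile of the same surgery was subtracted, Miox had a log2 change of 0.11 (adjusted p = 0.974), though it is among the markers that set the share. Slc34a1, also one of these, turned from -1.31 to 2.45 and passed as higher (adjusted p = 0.0359). Spp2, a secreted phosphoprotein of PT cells called lower before (log2 change -2.55, SE 0.58, adjusted p = 0.0351), had -0.79 (adjusted p = 0.679). Spp2 had also lost its call when sham 1, 3 and 4 and UUO 1, 2 and 4 were left out singly (adjusted p up to 0.104). The subtraction left 236 genes called, 230 of them among the 265.

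Tubular injury markers were the list with the most positive median (1.48), with 6 of 10 higher, none of them endothelial-led. Havcr1, the injury molecule KIM-1 of PT cells, had 1.84, 0.09, 0.31 and 0.54 FPKM in the sham samples and 7.16, 16.3 and 6.26 FPKM in the UUO samples (log2 change 2.67, SE 0.65, adjusted p = 0.0467), beside 269.5 ± 116 FPKM in UUO PT cells. With PT RNA subtracted its change was 0.59 (adjusted p = 0.848), and its call was lost whichever of the 7 samples was left out (adjusted p = 0.0506 to 0.163). Lcn2, the iron-siderophore binder lipocalin 2, had 2, 1.26, 14.4 and 2.72 FPKM in the sham samples and 45.9, 36.6 and 73.1 FPKM in the UUO samples (log2 change 3.51, SE 0.54, adjusted p = 0.00213), and kept 3.35 with PT RNA subtracted (adjusted p = 0.00378). Spp1, osteopontin, had 34.6, 66.2, 94.8 and 57.3 FPKM in the sham samples and 194, 223 and 439 FPKM in the UUO samples (log2 change 2.15, SE 0.35, adjusted p = 0.00362), and 1.71 after subtraction (adjusted p = 0.0348). Clu, the chaperone clusterin, had 75.8, 83.97, 104 and 63.8 FPKM in the sham samples and 168, 195 and 353 FPKM in the UUO samples (log2 change 1.48, SE 0.25, adjusted p = 0.00504), and 1.40 after subtraction (adjusted p = 0.00864). UUO 4 was the highest sample for Lcn2, Spp1 and Clu and held the most thick limb RNA of the UUO samples. Vcam1 and Anxa1 (log2 change 0.92, SE 0.20, adjusted p = 0.0266) completed the 6, and Anxa1 lost its call when sham 1 and 3 and UUO 1, 2 and 4 were left out singly (adjusted p = 0.0661 to 0.0752). Of the 10, 3 passed without sham 3 and UUO 4 together. RNA carried from thick limb or collecting duct cells, which were not sorted, could not be subtracted.

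**Figure D4:**
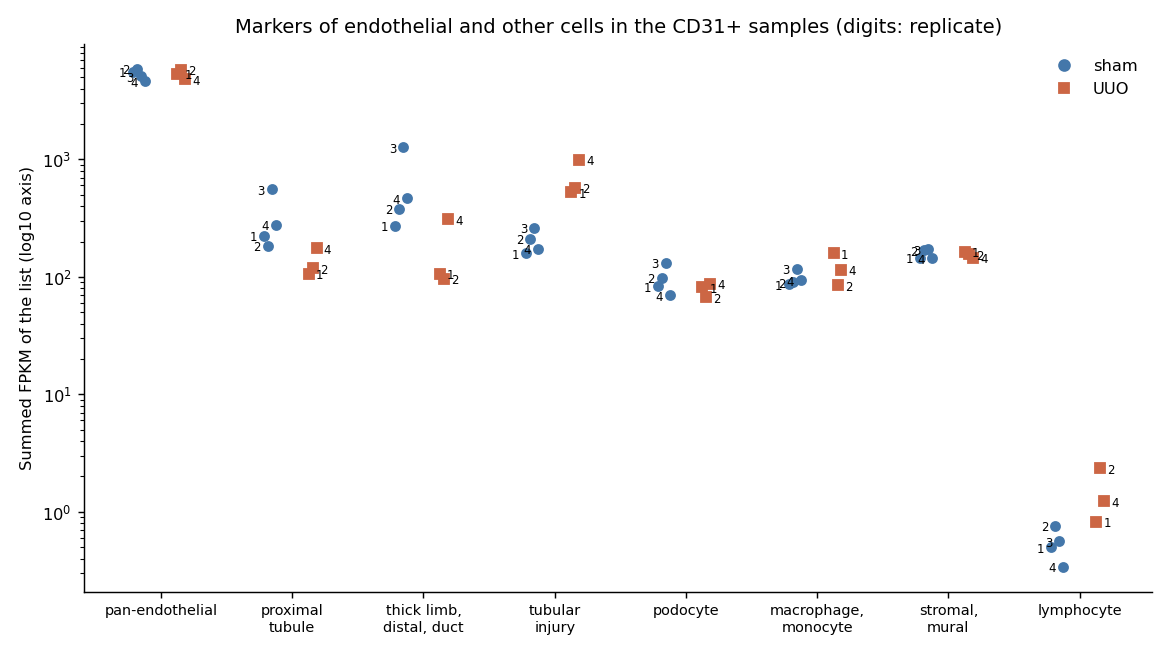
Summed FPKM of 8 marker lists on a log10 axis, 1 point per CD31+ sample with its replicate number, blue circles for sham and orange squares for UUO. Pan-endothelial markers lay between 4609 and 5897 FPKM in all 7 samples, while thick limb, distal and collecting duct markers reached 1270 FPKM in sham 3 against 96.5 to 467 FPKM elsewhere.

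None of the listed markers of blood or stromal cells passed. Sfrp2 and Abcc9, both higher in stromal cells than in the endothelial sorts, passed as given above but are not on these lists. Of the macrophage and monocyte list 12 of 16 genes were tested and none passed, and their sum was 86.5 to 118 FPKM in sham and 84.7 to 158 FPKM in UUO beside 15370 FPKM in sham macrophages. Adgre1, which encodes F4/80, was at or below 1.54 FPKM in every sample. Csf1r, the colony-stimulating factor receptor, was at 1.86 to 2.27 FPKM in sham and 1.49 to 2.43 FPKM in UUO, and C1qb and Lyz2 had 13.3 ± 1.66 FPKM in sham and 15.3 ± 4.22 FPKM in UUO and 42.2 ± 8.60 FPKM in sham and 47.6 ± 19.5 FPKM in UUO. None of the 10 lymphocyte markers reached a mean of 1 FPKM, with sums of 0.34 to 0.76 FPKM in sham and 0.82 to 2.35 FPKM in UUO. Neutrophil markers summed to 0.36 to 2.57 FPKM in sham and 1.41 to 9.58 FPKM in UUO, with Csf3r at 0.38 to 8.58 FPKM in UUO. Hemoglobin transcripts did not pass (Hbb-bs 50.1 ± 17.5 FPKM in sham and 70.5 ± 3.79 FPKM in UUO, Hba-a2 15.7 ± 10.9 FPKM in sham and 19.4 ± 3.98 FPKM in UUO). Among 15 stromal and mural genes none passed (median 0.01), with Acta2 at 37.3 ± 8.15 FPKM in sham and 28.6 ± 13.9 FPKM in UUO, Rgs5 at 43.01 ± 6.20 FPKM in sham and 29.8 ± 2.88 FPKM in UUO, Pdgfrb at 4.47 ± 1.73 FPKM in sham and 2.52 ± 1.82 FPKM in UUO and Pdgfra at 2.73 ± 1.78 FPKM in sham and 1.45 ± 0.881 FPKM in UUO.

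To ask which changes belonged to endothelial cells rather than to obstructed kidneys at large, the change in endothelial cells was set against the change in each other population in 1 fit. The difference passed for 1528 genes against PT cells (11.4% of 13393), for 244 against macrophages (1.82%) and for 1641 against stromal cells (12.3%). Of the 15 leading endothelial-led rises, 14 differed from PT cells, 14 from macrophages and 12 from stromal cells in the same direction, and 11 from all 3. These were Lrg1, Prnd, Kcnj8, Nrcam, Aqp7, Aplnr, Selp, Meox2, Ccdc3, Kcnj2 and Vwa1. For Aplnr the log2 change was 2.83 in endothelial cells and 0.10, 0.29 and -0.0038 in PT cells, macrophages and stromal cells, where its level never exceeded a group mean of 1.98 FPKM. Kcnj8 averaged 7.75 ± 1.78 FPKM in sham and 23.04 ± 7.34 FPKM in UUO stromal cells, and the endothelial change was larger by 1.98 (SE 0.53, adjusted p = 0.00902). Apln was at 0.75 ± 0.555 FPKM in sham and 5.60 ± 3.99 FPKM in UUO stromal cells, and the difference between endothelial and stromal change was 1.08 (SE 0.58, adjusted p = 0.24). Some differences include a fall in the other sort. In macrophages the log2 change was -1.38 for Kcnj2 (14.2 ± 3.38 FPKM in sham, 4.84 ± 1.28 FPKM in UUO) and -1.06 for Selp. It was -0.83 for Aqp7 in PT cells and -0.65 for Ccdc3 in stromal cells. The part of endothelial RNA in the stromal changes was not tested. Because the 15 genes were chosen for their endothelial change and level, these counts are a description of how far the other sorts shared it. With a pseudocount of 0.1 in place of 1, 8 of the 11, among them Lrg1, Selp, Aplnr and Kcnj8, lost at least 1 of their 3 differences (adjusted p = 0.0516 to 0.478). Lrg1 also rose in PT cells and in stromal cells, by 1.37 in each on the log2 scale. Its differences from these 2 were also lost on rescaling without mitochondrial genes (adjusted p = 0.113 and 0.083). For Meox2 the difference from stromal cells was lost when sham 1, 3 and 4 and UUO 2 and 4 were left out singly (adjusted p up to 0.152) and that from macrophages without UUO 4 (adjusted p = 0.0612), and for Aqp7 that from macrophages without sham 1 or UUO 2 (adjusted p = 0.0508 and 0.064). Quantile normalization and no filter on low values also lost the Meox2 difference from stromal cells (adjusted p = 0.0858 and 0.0558). Without sham 3 and UUO 4 together, Meox2 lost its differences from stromal cells and macrophages (adjusted p = 0.186 and 0.0913). Kcnj8 then lost that from stromal cells (adjusted p = 0.0602).

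**Figure D5:**
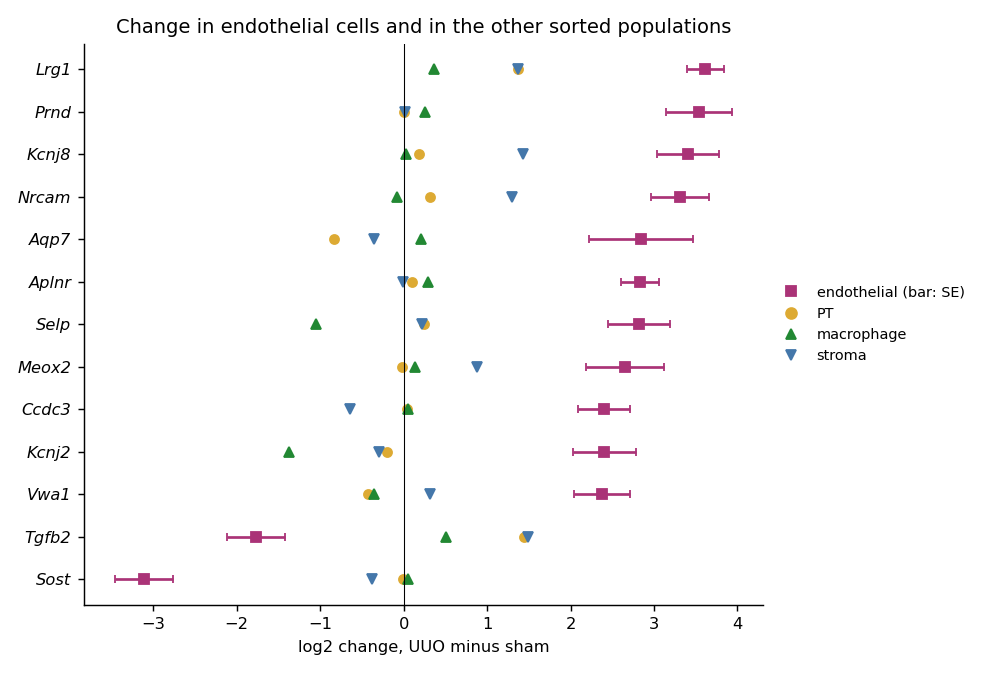
The log2 change in UUO against sham (x axis) is drawn for the 13 genes whose endothelial change differed from that of all 3 other populations. Purple squares with SE bars are endothelial cells, and the other markers are PT cells, macrophages and stromal cells. For the 11 genes that rose, endothelial changes lie between 2.38 and 3.62, while stromal cells reach at most 1.43.

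Of the 15 leading falls 11 differed from PT cells, 6 from macrophages, 3 from stromal cells and 2 from all 3. The 2 were Sost and Tgfb2. Tgfb2 fell in endothelial cells by 1.77 on the log2 scale, while it changed by 1.45 in PT cells and 1.49 in stromal cells, and the differences were -3.22 (SE 0.63, adjusted p = 0.000373) and -3.26 (SE 0.61, adjusted p = 0.000218). Against macrophages it was -2.28 (SE 0.61, adjusted p = 0.0379), and that difference was lost without sham 1, 2 or 3 or UUO 1 or 2 (adjusted p up to 0.0865). It was also lost with a pseudocount of 0.1 (adjusted p = 0.154). No filter on low values, TPM scaling, rescaling without mitochondrial genes and the replicate block lost it too (adjusted p = 0.0508 to 0.0589). For Sost, the differences were -3.11, -3.16 and -2.73 against PT cells, macrophages and stromal cells, and held in every fit tried. In these 3 sorts its sham and UUO group means were at most 0.425 FPKM, so a fall there could hardly register on this scale. The differences of Sost thus mostly repeat its endothelial fall and cannot show whether the other sorts shared it.

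The study followed miR-190a-5p, whose host gene is Tln2, and considered Adam10 as a possible target of it. Tln2, which encodes the focal adhesion protein talin 2, had 4.18, 13.98, 9.78 and 5.64 FPKM in the sham samples and 0.83, 1.73 and 1 FPKM in the UUO samples. The samples did not overlap and the mean was 7.07-fold lower in UUO (log2 change -2.003, SE 0.50, adjusted p = 0.0509), just outside the threshold. In 5 of 19 alternatives it passed, among them the fit of all 4 populations (adjusted p = 0.00742) and the rescaling without mitochondrial genes (log2 change -2.44, adjusted p = 0.0385), and over the 19 its log2 change ran from -2.63 to -1.74 with adjusted p up to 0.215. Tln2 was not endothelial-led. PT cells had 9.39 ± 1.68 FPKM of it in sham and 4.74 ± 1.09 FPKM in UUO. Stromal cells had 9.94 ± 3.41 FPKM in sham and 20.9 ± 16.5 FPKM in UUO. The endothelial change differed from the stromal change by -2.77 (SE 0.63, adjusted p = 0.00233). Differences from PT cells and macrophages did not pass (-1.14 and -2.10, adjusted p = 0.281 and 0.0707). Adam10, a membrane sheddase, had 25.2, 31.1, 26.9 and 20.5 FPKM in the sham samples and 27.6, 25.9 and 22.6 FPKM in the UUO samples, which overlapped (log2 change -0.02, SE 0.21, adjusted p = 0.986), and its direction changed with the samples kept.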

How the data were processed

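RNA-seq was compared in CD31+ endothelial cells sorted from sham and UUO kidneys, with 4 and 3 samples. The authors deposited FPKM per gene for 46 columns, and their processing notes name FastQC, Bowtie2, RSEM and DESeq2 without versions and the mm10 build, with 53465 genes in the table. The 2 columns that shared one CD31+ UUO name were not used, which left 44. Values were rounded to 2 decimals by the authors and no counts were used here, so absolute depth is unknown and low values carry the most error. FPKM are shares of a library, so a change in mitochondrial RNA shifts all other genes. The design text counts 4 mice for each group, but the labels do not tie a sample to an animal, so p-values measure the spread between these samples.

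Genes with a mean of 1 FPKM or more over 11 endothelial samples (sham, UUO and rUUO, which share one estimate of the spread) were fitted as log2(FPKM + 1), pseudocount 1, in limma 3.58.1 (R 4.3.3) with an intensity trend, 8 residual degrees of freedom, and Benjamini-Hochberg adjustment over all 13393 genes at 0.05. Every adjusted p in the text comes from this fit, from one of its alternatives or, for differences between populations, from a limma fit over all 44 samples. Log2 changes are on the log2(FPKM + 1) scale, which understates changes of low genes. Fold values are ratios of mean FPKM. Shares of FPKM were compared by exact two-sided permutation over 35 regroupings (Python 3.11.15, SciPy 1.17.1). Tested on simulated data of 13393 genes, the fit recovered 15% of genes changed by 1 and 61% changed by 2 on the log2 scale, with 3 false calls beside 200 changed genes. The simulated noise was independent between genes, so these rates do not cover shifts that a whole sample carries. PT RNA was estimated for each sample as the median ratio of PT markers to sorted PT cells of the same surgery.

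The comparison, the lists and the tests were chosen with earlier results of these data known. Named were Pecam1, Kdr, Cdh5, Tln2 and Adam10, of each of 35 lists the 2 largest rises and falls that passed (with none passed, the 2 most abundant), the first members of lists for other cell types, and among non-overlapping calls with a higher group mean of 5 FPKM or more the 15 largest rises and falls of endothelial-led genes and the 6 largest of the others, without predicted genes. Esm1, Angpt2, Dll4, Pgf, Flt1, Tek, Tie1, Tcf15, Id1, Id3, Smad6, Tgfb1, Ehd3, Igfbp7, Tspan7, Nrp2, Ltbp1, Sparc, Plod1, Serpinh1, Osmr, Fos, Fosb, Fosl2, Egr1, Ier3, Nr4a1, Fabp4, Angptl4, Cxcr4, Mcam, Clu, Spp1, Anxa1, AA467197, Galnt15 and Gja1 were chosen after their values were seen. Coordinates are those of GRCm38 from the GENCODE M21 table, and promoter windows those of RefSeq. Alternatives varied the pseudocount, the filter, the scaling, the samples in the fit, the trend, a replicate block and the samples kept. A few results that the rule would name are not reported here.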

Additional observations from a re-analysis of the deposited data

Results flagged for a closer look

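Of 127 named genes, 12 had a sham sample whose distance from the nearest other sham sample, divided by the range of the 4, was above Dixon's limit for 4 samples, which chance passes in about 1 of 20 groups. The ratio was 0.982 for Col4a2, 0.912 for Cdh5 and 0.871 for Igfbp5, each with sham 4 apart. It was 0.897 for Pvalb, 0.887 for Kcnj2, 0.862 for Sfrp2 and 0.84 for Plvap, each with sham 3 apart. For Nr4a1, H2-K1 and AA467197 the ratio was 0.93, 0.898 and 0.845, with sham 1 apart, and for Apln and Acta2 it was 0.893 and 0.844, with sham 2 apart. The UUO group of 3 was too small for this comparison.

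For 13 genes the log2 change in endothelial cells differed from that in each other population by a contrast within 1 limma fit, and each difference is given as endothelial minus PT cells, macrophages and stromal cells in that order. Of genes that rose, the differences were 2.24, 3.26 and 2.25 for Lrg1. They were 3.54, 3.29 and 3.53 for Prnd. Kcnj8 gave 3.23, 3.37 and 1.98, and Kcnj2 gave 2.61, 3.78 and 2.70. Nrcam gave 2.99, 3.39 and 2.01, and Aqp7 gave 3.68, 2.64 and 3.19. For Aplnr the values were 2.73, 2.54 and 2.84, for Selp 2.58, 3.88 and 2.60, and for Meox2 2.67, 2.52 and 1.77. Ccdc3 differed by 2.36, 2.35 and 3.05, and Vwa1 by 2.81, 2.74 and 2.06. Of genes that fell, Sost differed by -3.11, -3.16 and -2.73, and Tgfb2 by -3.22, -2.28 and -3.26. Sost group means were at most 0.425 FPKM in the other populations, so a fall there could hardly register. Several of the differences of these 13 genes were lost under other settings, as given above.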

How the results depend on the processing

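Counts of calls, 265 in all (171 higher, 94 lower), depended on the settings. They were 127 (96 and 31) with no filter on low values, 139 (90 and 49) with sham and UUO samples only, 165 (113 and 52) with no intensity trend, 492 (280 and 212) with all 4 populations in one fit and 101 (71 and 30) with the replicate block. Rescaling without mitochondrial genes gave 107 higher. Leaving out 1 sample gave 146 to 229 calls (101 to 153 higher, 45 to 95 lower), with the fewest without UUO 1, and leaving out sham 3 and UUO 4 together, a choice made after seeing the data, gave 167 (115 and 52). The cause of these shifts was not tested. A pseudocount of 0.1, a filter at 5 FPKM, TPM scaling, quantile normalization and PT RNA subtraction left the total within 1.5 times. Deviations from the group means of same-numbered samples (1, 2 and 4) correlated by -0.045 to 0.046, so these values showed no pairing. Whether same-numbered samples shared a processing step was not tested. Of 101 calls under the replicate block, 100 were among the 265. In that fit Adam10 changed by 0.0037, B2m by -0.028 and Ppbp by 0.086.

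Genes whose direction turned were not called, except Miox. Rescaling without mitochondrial genes gave Gja5 -0.085, B2m -0.043, Lyz2 -0.0085 and Prox1 -0.072, and quantile normalization gave Gja5 -0.056. With PT RNA subtracted, Miox was 0.11, Lrp2 0.052 and Slc34a1 2.45 (adjusted p = 0.0359), and the subtraction takes more from sham than from UUO samples for these genes. Over the fits that left out samples, direction turned for Adam10 (-0.12 to 0.081), Gja5 (-0.12 to 0.20), Bst2 (-0.047 to 0.42), B2m (-0.028 to 0.16), Lyz2 (-0.19 to 0.35), C1qb (-0.011 to 0.37), Csf3r (-0.33 to 1.07), Ppbp (-0.58 to 0.086), Pf4 (-0.10 to 1.42), Csf1r (-0.15 to 0.082) and Prox1 (-0.36 to 0.50). Depth limits genes near 1 FPKM most, since 2 decimals and no counts are given.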
